A study of Mus musculus with 8 samples.

Results

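The genes described are 10 members of the Bcl2 family of survival and death genes, picked out by gene symbol. The rule reads no measured value, but the symbols were chosen with earlier results of these data known. The members are the survival genes Bcl2, Bcl2l1, Mcl1, Bcl2a1b and Bcl2a1d, the effectors Bax and Bak1, and the BH3-only death genes Bcl2l11, Bbc3 and Pmaip1. The deposited table listed all 10 among 38406 gene symbols, and 9 of them were among the 14772 genes with enough reads to test. They were followed in RNA of regulatory T cells (Tregs, CD4 T cells that express Foxp3 and hold immune responses in check) from spleen and from injured skeletal muscle of male C57BL/6 mice. The 4 groups were splenic Tregs at 2 months, splenic Tregs at more than 6 months, muscle Tregs at 2 months and muscle Tregs at more than 6 months, called young and aged here, with 2 libraries each. What every group shared was injury: cardiotoxin, a venom protein that kills muscle fibres, had been given at 0.9 µg per muscle into tibialis anterior, quadriceps and gastrocnemius, and spleen and muscle were both taken 4 days later. No uninjured group was analysed here, so spleen stands for splenic Tregs of injured mice. Each library came from 1500 cells sorted in 2 rounds. The sources used here give neither the gate of the sort nor whether animals were pooled, so a p-value reflects the spread between libraries, which may be technical.

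The proteins of this family decide whether the outer mitochondrial membrane stays intact. Bax and Bak1 form pores in it that release cytochrome c and start the caspases; Bcl2, Bcl-xL (from Bcl2l1), Mcl1 and A1 (from the Bcl2a1 genes) hold them in check; the BH3-only proteins Bim (Bcl2l11), Puma (Bbc3) and Noxa (Pmaip1) bind the survival proteins and free the effectors. In mouse Tregs, Mcl1 is known to be needed for survival and Bim to drive their turnover, with interleukin-2 acting through Stat5 as the main survival signal. Much of this control works on the proteins, by binding, phosphorylation and degradation, which RNA counts do not measure.

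The libraries held 1969982 to 4008622 counts. Levels are given in CPM, a gene's reads as a share of the library's total, scaled between libraries by the trimmed mean of M values (TMM), and are compared between libraries and not between genes. All 8 Treg and T cell markers on the list used, Foxp3 among them, were detected in every library, with a summed level of 3128 to 4655 CPM. Foxp3 itself had 33 to 108 reads per library. In young muscle replicate 1, Ctla4 alone gave 6143 of the 11362 summed reads. Between tissues, 1 of the 8 markers was higher and 2 lower in young muscle, and 2 were higher and 2 lower in aged muscle. Young muscle replicate 1 stood apart in myeloid markers: 11 such genes summed to 726.2 CPM there, against 310.7 CPM in young muscle replicate 2 and 267.3 to 366.3 CPM in the other 6 libraries. Its 288 reads of the macrophage lysozyme gene Lyz2 compare with 24 in young muscle replicate 2. The same library was highest in fibroblast and endothelial markers, which summed to 552.8 CPM there, 233.8 CPM in young muscle replicate 2, 338.4 to 354.1 CPM in young spleen, 155.2 to 183.9 CPM in aged spleen and 178.8 to 211 CPM in aged muscle. Its 374 reads of the collagen gene Col1a1 compare with 30 in young muscle replicate 2 and 3 to 13 in the other 6 libraries. Aged muscle replicate 2 had the most reads of Dcn, another fibroblast gene, 72 against 0 to 8 elsewhere. Outside young muscle replicate 1, most reads of the fibroblast and endothelial sums came from Pecam1. That gene had 677 of 724 and 887 of 914 reads in young spleen, and 410 of 468 in young muscle replicate 2. The higher sums of young spleen thus do not stand for more reads of collagen genes. Aged muscle replicate 2 had the lowest Spearman correlations with the spleen libraries across genes, 0.765 to 0.812, against 0.853 to 0.883 for aged muscle replicate 1. Erythroid markers, 5 genes, summed to 125.8 and 161.2 CPM for aged spleen, 22.86 and 66.36 CPM for young spleen and 7.449 to 41.44 CPM in muscle. In such bulk samples, fewer cells of a type and less RNA per cell cannot be told apart.

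The A1 genes come first because their sequences set what their counts can mean. Mice carry several near-identical copies, of which Bcl2a1b and Bcl2a1d are members here. The first 60 coding bases of these and of the copy Bcl2a1a are shown. No stretch of 60 coding bases within 1 exon held more differences between Bcl2a1b and Bcl2a1d than the 2 here. Reads of 1 copy can thus be taken for another. Capitals mark positions at which the 3 copies differ, and the stretches lie on GRCm38 at chr9:89199360-89199419 on the plus strand, chr9:88731660-88731719 on the minus strand and chr9:88957051-88957110 on the plus strand, in the order shown.
Bcl2a1b: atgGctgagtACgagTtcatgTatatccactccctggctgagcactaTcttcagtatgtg
Bcl2a1d: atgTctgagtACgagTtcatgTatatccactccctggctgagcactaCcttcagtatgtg
Bcl2a1a: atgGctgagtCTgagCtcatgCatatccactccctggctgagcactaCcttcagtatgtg
Over the 516 coding bases, Bcl2a1b and Bcl2a1d differed at 6 positions, an identity of 98.8%. Bcl2a1a differed from Bcl2a1b at 11 positions and from Bcl2a1d at 7. Of all 50-base windows along the annotated transcript, 20.8% in Bcl2a1b and 20.5% in Bcl2a1d matched no other gene exactly, against 100% in Bcl2l1, Mcl1, Bbc3 and Pmaip1, 99.9% in Bcl2l11, 94.7% in Bcl2, 91.5% in Bax and 82.9% in Bak1. The sources used here do not give how the authors' counting treated reads that match several copies.

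The A1 genes had few reads. Bcl2a1b had 3 reads in young muscle replicate 1, 2 in aged muscle replicate 1 and 0 in the other 6 libraries; a count of 0 in both libraries of a group allows a level of up to 0.636 CPM for young spleen and 0.427 CPM for aged spleen, by the limit of 3 counts. It did not pass the filter on low counts and was not tested. Bcl2a1d had 0 and 9 reads in young spleen, 17 and 14 for aged spleen, 3 and 4 for young muscle, and 9 and 7 for aged muscle. It passed the filter only through the 2 aged spleen libraries, and the 95% interval of its log2 fold change for tissue in young mice ran from -3.02 to 2.66. When the rows of all 4 copies were summed, counts were 0 and 9 for young spleen, 25 and 16 for aged spleen, 12 and 5 for young muscle, and 12 and 9 for aged muscle. The groups were not told apart at this depth, with edgeR adjusted p between 0.509 and 0.96 in the 5 comparisons for the Bcl2a1 sum.

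Bcl2, the founding survival gene of the family, was lower in muscle than in spleen at both ages, and lower in aged than in young spleen. Its level was 485.6 and 468 CPM for young spleen, 234.9 and 294.8 CPM for aged spleen, 54.31 and 72.93 CPM for young muscle, and 52.89 and 65.55 CPM for aged muscle. All 4 muscle libraries lay below all 4 spleen libraries, the 2 spleen groups did not overlap, and the 2 muscle groups did. In young mice Bcl2 was 7.52-fold lower in muscle, a log2 fold change of -2.91 ± 0.20 (SE, n = 2 per group, edgeR adjusted p = 1.11e-07), and 1.07% of the genes tested lay as low or lower. In aged mice it was 4.47-fold lower, at -2.16 ± 0.20 (edgeR adjusted p = 3.59e-06), with 1.66% of genes as low or lower. With age it fell 1.8-fold in spleen, at -0.85 ± 0.18 (edgeR adjusted p = 0.0134). In muscle the log2 fold change of Bcl2 with age was -0.10, with a 95% interval from -0.53 to 0.33. The difference between the 2 age effects, 0.75 ± 0.27, did not pass (edgeR adjusted p = 0.201). Both tissue calls were kept under all 16 alternative settings, whereas the age call in spleen ended without any 1 spleen library: there the value for Bcl2 was -0.82 without young spleen replicate 1, -0.88 without young spleen replicate 2, -0.69 without aged spleen replicate 1 and -1.02 without aged spleen replicate 2.

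The gene lies on GRCm38 at chr1:106538178-106714274 on the minus strand. The promoter window of Bcl2, 250 bases before to 50 after the RefSeq start (GRCm38.p6, chr1:106714241-106714540, minus strand), is shown because this member had the lowest muscle to spleen ratio of the 9 tested. It was searched on both strands for the STAT palindrome TTCNNNGAA and the forkhead core GTAAACA, which 8.3% and 3.65% of 32851 such windows hold. It held neither, so it has no capitals.
Bcl2 promoter: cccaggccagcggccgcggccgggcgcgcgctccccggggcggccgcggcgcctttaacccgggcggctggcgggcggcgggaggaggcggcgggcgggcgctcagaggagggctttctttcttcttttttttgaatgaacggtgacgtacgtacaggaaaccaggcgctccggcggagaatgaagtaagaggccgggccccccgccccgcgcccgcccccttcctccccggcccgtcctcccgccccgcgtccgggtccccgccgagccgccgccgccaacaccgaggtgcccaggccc

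**Figure D1:**
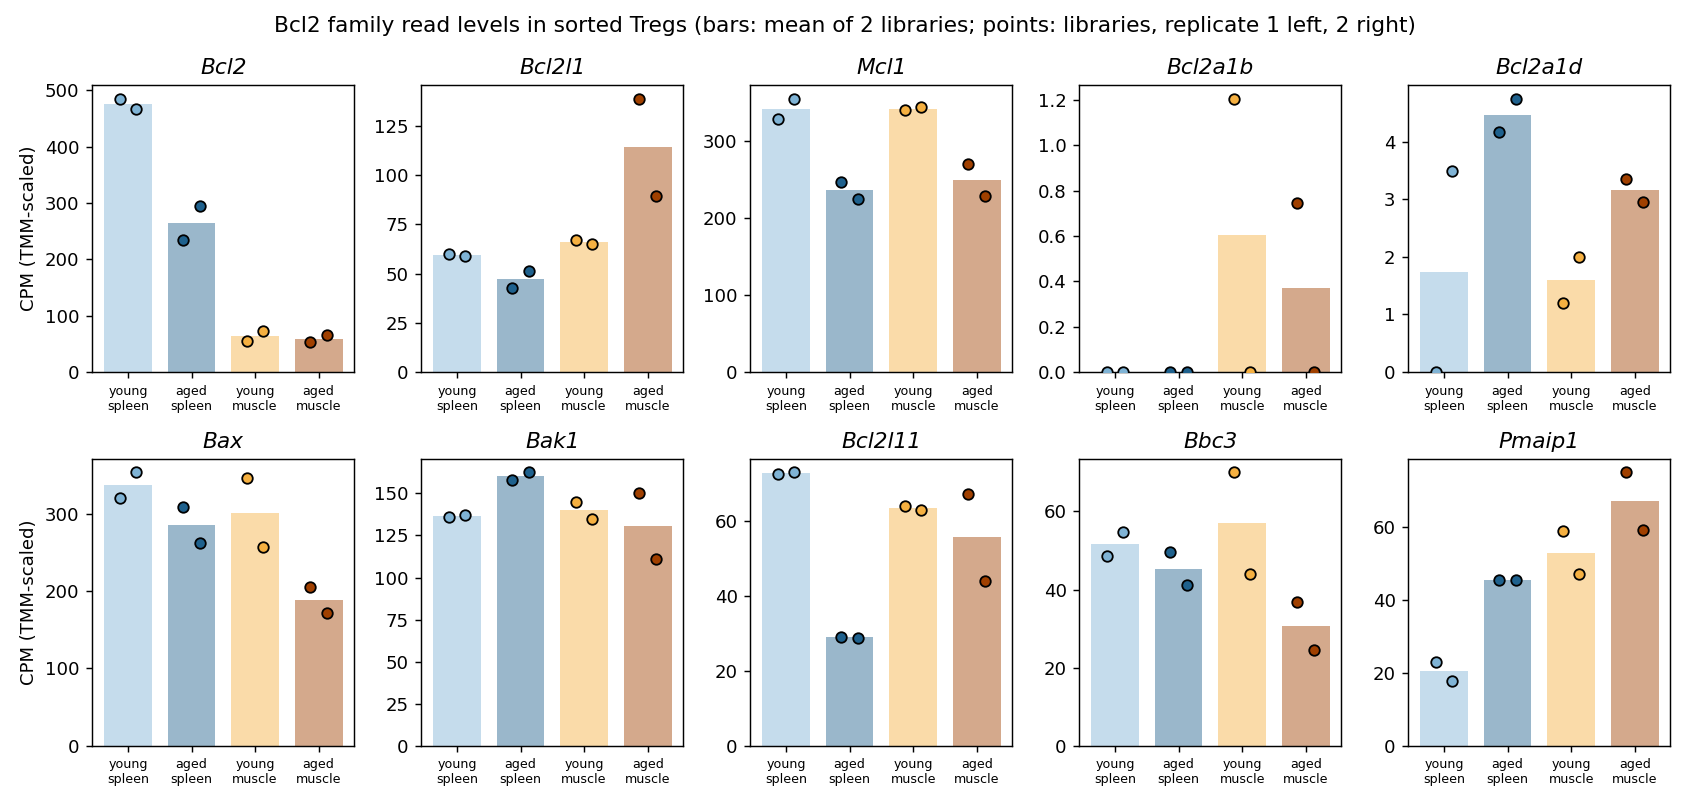
Level of the members in each of the 8 libraries, in TMM-scaled CPM on a vertical axis that differs between panels, 1 panel per gene, with points for libraries and bars for the mean of the 2 libraries of a group. Bcl2 sits at 234.9 to 485.6 CPM in the spleen libraries and at 52.89 to 72.93 CPM in the muscle libraries, whereas Mcl1 is split by age in both tissues.

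Bcl2l1, which makes the survival protein Bcl-xL, was higher in aged muscle than in aged spleen. It stood at 59.82 and 58.89 CPM for young spleen, 42.91 and 51.57 CPM for aged spleen, 67.19 and 64.94 CPM for young muscle, and 138.9 and 89.23 CPM for aged muscle. The order of the group means was aged muscle, young muscle, young spleen and aged spleen, and no neighbouring groups overlapped, with aged muscle replicate 1 the highest library. In aged mice it was 2.42-fold higher in muscle, at 1.28 ± 0.23 (edgeR adjusted p = 0.00179), a call kept under all 16 alternatives. Leaving out aged muscle replicate 2, whose correlations with the spleen libraries were the lowest, gave 1.56 for Bcl2l1, and leaving out aged muscle replicate 1 gave 0.94. Erythroid markers were lower in aged muscle than in aged spleen, 3 of 5 past the threshold. Of 5 neutrophil markers tested, 1 passed as lower and 0 as higher in aged muscle. The part of these markers in the aged tissue values of the members was not tested. In young mice the Bcl2l1 difference was 0.16 ± 0.24 (edgeR adjusted p = 0.674). The rest did not pass: 0.79 ± 0.23 for age in muscle (edgeR adjusted p = 0.107), -0.33 ± 0.24 for age in spleen (edgeR adjusted p = 0.534) and 1.12 ± 0.33 for the difference of these age effects (edgeR adjusted p = 0.105). Without aged muscle replicate 2, Bcl2l1 passed for age in muscle, at 1.07, and for the difference, at 1.40; scaling by library size alone also brought age in muscle past the threshold, at 0.90.

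Mcl1, the short-lived survival protein's gene, had overlapping levels in the 2 tissues at each age. It measured 327.6 and 354.5 CPM for young spleen, 339.2 and 343.2 CPM for young muscle, 246.2 and 224.9 CPM for aged spleen, and 270 and 227.9 CPM for aged muscle. The 4 young libraries were above the 4 aged ones, and spleen and muscle overlapped at each age. The tissue difference was 0.00 in young mice, with a 95% interval from -0.33 to 0.33, and 0.08 in aged mice, from -0.24 to 0.40. For age, Mcl1 was at -0.53 ± 0.15 in spleen (edgeR adjusted p = 0.0642) and -0.45 ± 0.15 in muscle (edgeR adjusted p = 0.157), neither past the threshold. In spleen it passed at -0.55 in DESeq2 (adjusted p = 0.0118), with relative log expression (RLE) scaling, with only the 2 groups compared, with a replicate block (-0.54), and without any 1 muscle library, at -0.53 to -0.55.

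Of the effectors, Bax was lower in aged muscle than in aged spleen. Its level was 320.6 and 353.7 CPM for young spleen, 308.4 and 261.9 CPM for aged spleen, 346 and 257.3 CPM for young muscle, and 205.2 and 172.1 CPM for aged muscle. The 2 aged muscle libraries were below the other 6, among which the young spleen and young muscle groups overlapped. In aged mice Bax was 1.51-fold lower in muscle, at -0.60 ± 0.18 (edgeR adjusted p = 0.0298). That call ended without either young spleen library (-0.60), and at -0.47 and -0.71 without aged spleen replicate 1 or 2, and at -0.48 without aged muscle replicate 2. With age in muscle Bax was at -0.68 ± 0.18 (edgeR adjusted p = 0.0677). It passed there in DESeq2 (-0.68, adjusted p = 0.0123), with no filter (-0.69), with a replicate block (-0.67), without young muscle replicate 2 (-0.87) and without aged muscle replicate 1 (-0.80). Without young muscle replicate 1, the library high in myeloid and fibroblast markers, the Bax value was -0.45; the part of these markers in the result was not tested.

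Bak1, the other effector, passed no test. It measured 136 and 137.2 CPM for young spleen, 157.9 and 162.5 CPM for aged spleen, 144.8 and 134.9 CPM for young muscle, and 150.1 and 110.8 CPM for aged muscle. The whole range over 8 libraries, 110.8 to 162.5 CPM, placed aged muscle replicate 2 at the bottom and the 2 aged spleen libraries at the top. Its furthest log2 fold change in the 4 comparisons of groups was -0.29 ± 0.18 for muscle against spleen in aged mice (edgeR adjusted p = 0.255). Some of its reads could come from Ggnbp1, and some of those of Bax from Gm45808, which share transcript sequence with them.

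Among the BH3-only genes, Bcl2l11, which makes Bim, was lowest in aged spleen. It stood at 72.44 and 72.84 CPM for young spleen, 28.93 and 28.84 CPM for aged spleen, 63.97 and 62.94 CPM for young muscle, and 67.04 and 43.98 CPM for aged muscle. Both aged spleen libraries lay below the other 6, and the 2 muscle groups overlapped. With age in spleen Bcl2l11 fell 2.51-fold, at -1.33 ± 0.25 (edgeR adjusted p = 0.00632), with 2.77% of tested genes as low or lower. In aged mice it was 1.92-fold higher in muscle than in spleen, at 0.94 ± 0.25 (edgeR adjusted p = 0.0168). In young mice the tissue difference was -0.19 ± 0.24 (edgeR adjusted p = 0.593), and for age in muscle it was -0.19 ± 0.24 (edgeR adjusted p = 0.757). The difference of age effects, 1.14 ± 0.35, did not pass (edgeR adjusted p = 0.115), and passed without aged muscle replicate 2, at 1.41. The Bcl2l11 age call in spleen ended without any 1 spleen library, at -1.33 in each case, with adjusted p between 0.0753 and 0.109. The call between tissues in aged mice ended without either aged spleen library (0.95 and 0.94 with replicate 1 or 2 left out). It ended too without aged muscle replicate 1 (0.63). Aged spleen was also the group with the highest erythroid markers. Of the neutrophil genes, S100a8 had 73 and 163 reads there and S100a9 60 and 146, against 0 and 3 and 0 and 10 in aged muscle. Cxcr2, on the same list, went the other way, with 527 and 435 against 632 and 971 reads. The part of the erythroid and neutrophil markers in the Bcl2l11 and Bcl2 values was not tested.

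Bcl2l11 lies at chr2:128126038-128162547 on the plus strand. The promoter window of its first RefSeq start (GRCm38.p6, chr2:128125788-128126087, plus strand) is shown because Bcl2l11 was, like Bcl2, lower in aged spleen. It held 1 match to the forkhead core, in capitals, and none to the STAT palindrome. The window of a second RefSeq start of Bcl2l11 (chr2:128127325-128127624, plus strand) was searched too and held 0 matches to either. A window of Bbc3, a member that passed no test, also held 1 match to the forkhead core (chr7:16310011-16310310, plus strand). A match is a description of the letters only.
Bcl2l11 promoter: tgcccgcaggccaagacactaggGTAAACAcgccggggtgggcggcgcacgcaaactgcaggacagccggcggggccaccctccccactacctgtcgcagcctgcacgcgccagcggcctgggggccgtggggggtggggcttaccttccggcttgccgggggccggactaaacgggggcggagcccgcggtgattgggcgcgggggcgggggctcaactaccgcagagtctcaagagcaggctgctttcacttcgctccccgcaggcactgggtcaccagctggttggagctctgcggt

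Pmaip1, which makes Noxa, a BH3-only protein that binds Mcl1, was lowest in young spleen. It measured 22.9 and 17.82 CPM for young spleen, 45.36 and 45.46 CPM for aged spleen, 58.74 and 46.96 CPM for young muscle, and 74.86 and 59.2 CPM for aged muscle. The 2 young spleen libraries lay below the other 6; next came aged spleen, then young muscle, with aged muscle at the top, and no neighbouring pair of groups overlapped. In young mice Pmaip1 was 2.61-fold higher in muscle, at 1.38 ± 0.27 (edgeR adjusted p = 0.00223), a call kept under all 16 alternatives. Of 9 myeloid markers tested, 6 passed as higher in young muscle, where 11.4% of all genes did. Their summed level was 726.2 CPM in young muscle replicate 1 and 310.7 CPM in replicate 2, against 267.3 to 322 CPM in young spleen. Of 5 fibroblast and endothelial markers 1 was higher and 1 lower. Without young muscle replicate 1, where both sets were highest, Pmaip1 was at 1.21 and Bcl2 at -2.71. The library left in that group had 24 reads of Lyz2 and 30 of Col1a1. Young spleen had 20 and 3 reads of Lyz2 and 11 and 9 of Col1a1. The part of other cells in the Pmaip1 and Bcl2 values was not tested. With age in spleen Pmaip1 rose 2.24-fold, at 1.16 ± 0.27 (edgeR adjusted p = 0.0231). This age call ended without young spleen replicate 1 (1.35) or 2 (0.99) and without aged spleen replicate 1 (1.16) or 2 (1.16). In aged mice the Pmaip1 tissue difference was 0.56 ± 0.25 (edgeR adjusted p = 0.126), for age in muscle it was 0.34 ± 0.25 (edgeR adjusted p = 0.555), and the difference of age effects was -0.82 ± 0.37 (edgeR adjusted p = 0.357).

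Bbc3, which makes Puma, a target of p53, passed no test. It stood at 48.6 and 54.63 CPM for young spleen, 49.53 and 41.05 CPM for aged spleen, 70 and 43.96 CPM for young muscle, and 36.87 and 24.53 CPM for aged muscle. The aged muscle libraries were the lowest, and the other 3 groups overlapped. For age in muscle Bbc3 was at -0.89 ± 0.30 (edgeR adjusted p = 0.149). Without young muscle replicate 2 it passed, at -1.18, and without young muscle replicate 1 it was at -0.51 (edgeR adjusted p = 0.652).

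Counted over the 9 members tested, 2 passed at an edgeR adjusted p of 0.05 between the tissues in young mice, Pmaip1 higher and Bcl2 lower in muscle, where 22.3% of all genes tested passed, 11.4% higher and 10.9% lower. In aged mice 4 passed, Bcl2l1 and Bcl2l11 higher and Bcl2 and Bax lower in muscle, against 18.8% of all genes, 9.57% higher and 9.27% lower. For age in spleen 3 passed, Pmaip1 higher and Bcl2 and Bcl2l11 lower in aged mice, against 4.24% of all genes, 2.08% higher and 2.17% lower; DESeq2 gave 4, with Mcl1 lower as well. For age in muscle edgeR called 0 members, against 2.02% of all genes, 1.14% higher and 0.88% lower; 4 members were under an unadjusted p of 0.05 and DESeq2 called 1, Bax. For the difference of the age effects edgeR and DESeq2 both called 0, against 2.52% of genes by edgeR, 1.35% higher and 1.17% lower, with 4 members under an unadjusted p of 0.05. The edgeR count for age in spleen was 0 without any 1 of the 4 spleen libraries, and that in aged mice was 2 without aged spleen replicate 1 or without aged spleen replicate 2. The count of members for age in muscle was 2 without young muscle replicate 2 and 1 without either aged muscle library, and that of the difference was 2 without aged muscle replicate 2. The tissue and age comparisons share libraries, so they are not independent of each other.

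**Figure D2:**
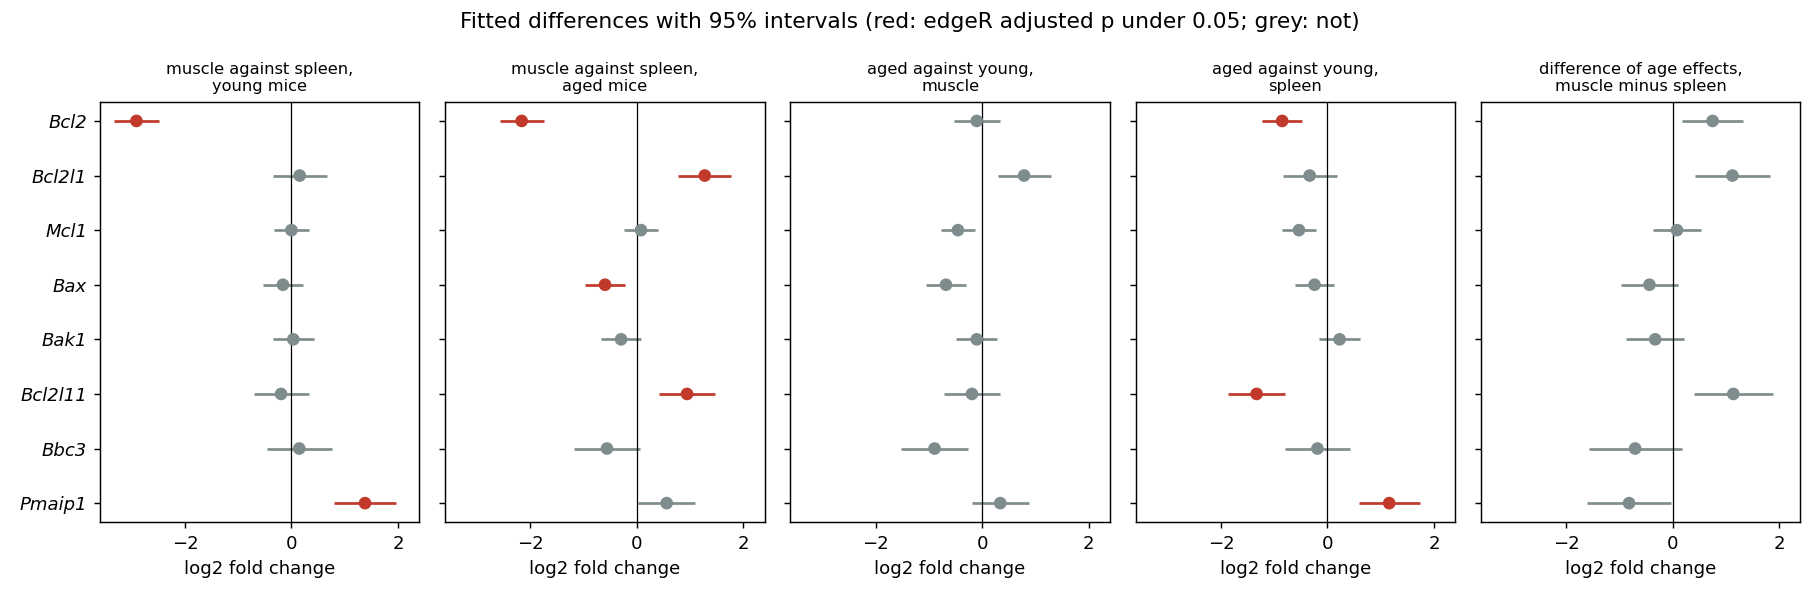
Log2 fold change of 8 members, with bars for the 95% interval of edgeR's test over 2 libraries per group, in the 4 comparisons of groups and the difference of the age effects; red points passed an adjusted p of 0.05 and grey ones did not. Bcl2a1d is left out because of its wide interval. Bcl2 lies at -2.91 and -2.16 for muscle against spleen, and no point is red for age in muscle.

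Ratios between members within a library do not depend on how libraries are scaled. They are counts per count, so only their change between libraries is read, and they carry no test here. Bcl2 over Bcl2l11, a survival gene over a gene of its inhibitor, was 6.7 and 6.43 for young spleen, 8.12 and 10.2 for aged spleen, 0.849 and 1.16 for young muscle, and 0.789 and 1.49 for aged muscle. Every spleen library was above every muscle library, and the young and aged muscle groups overlapped. Mcl1 over Bcl2l11 was 4.52 and 4.87 for young spleen, 8.51 and 7.8 for aged spleen, 5.3 and 5.45 for young muscle, and 4.03 and 5.18 for aged muscle, with aged spleen above the other 6 libraries. Bcl2l1 over Bcl2 was 0.123 and 0.126 for young spleen, 0.183 and 0.175 for aged spleen, 1.24 and 0.89 for young muscle, and 2.63 and 1.36 for aged muscle, so that the libraries of the 4 groups did not overlap. Pmaip1 over Mcl1 was 0.0699 and 0.0503 for young spleen and 0.137 to 0.277 in the other 6 libraries. Bax over Bak1 was 2.36 and 2.58 for young spleen, 1.95 and 1.61 for aged spleen, 2.39 and 1.91 for young muscle, and 1.37 and 1.55 for aged muscle.

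The make-up of the family's reads differed between tissues mainly through Bcl2. It took 33% and 30.8% of the reads of the 10 members in young spleen, 21% and 26.4% for aged spleen, 4.74% and 7.09% for young muscle, and 5.29% and 8.23% for aged muscle. The 10 members summed to 1474 and 1521 CPM for young spleen, 1118 and 1116 CPM for aged spleen, 1147 and 1029 CPM for young muscle, and 1000 and 796.3 CPM for aged muscle. Without Bcl2 the sums were 988 and 1053 CPM for young spleen, 883.4 and 821.1 CPM for aged spleen, 1092 and 956.1 CPM for young muscle, and 947.1 and 730.7 CPM for aged muscle, and the young spleen and young muscle groups overlapped.

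**Figure D3:**
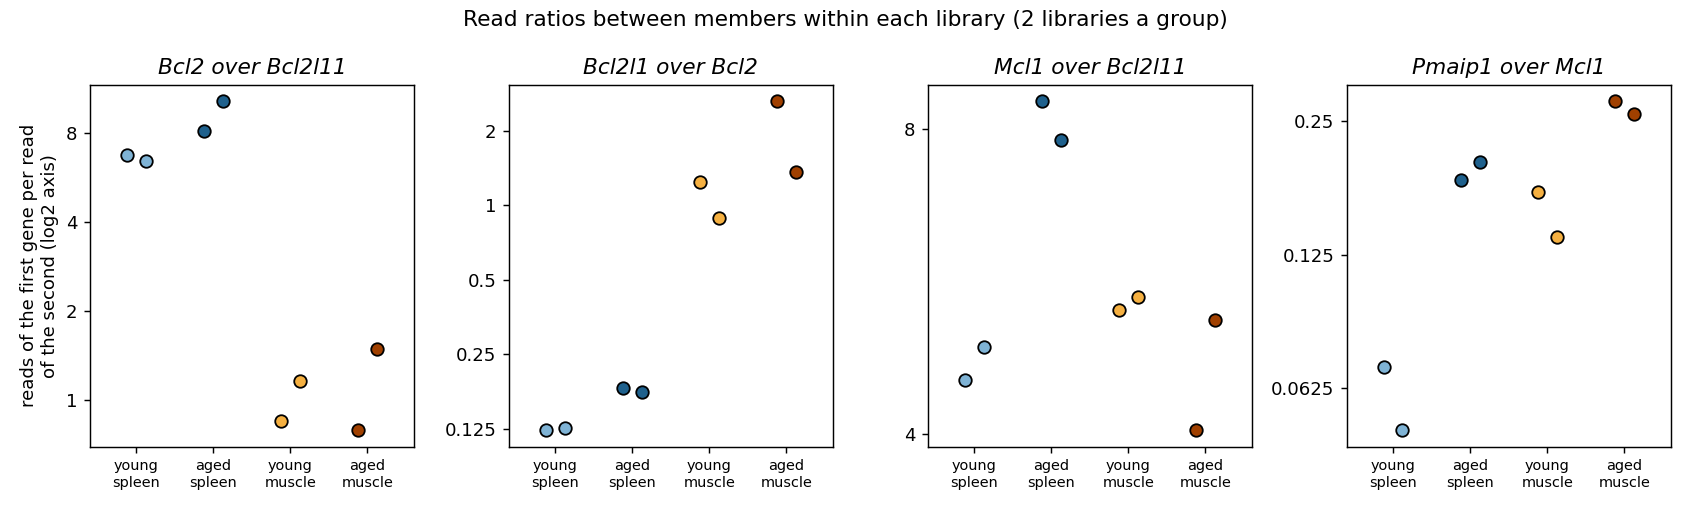
Ratio of read counts between pairs of members in each library, on a log axis, 1 panel per pair and 1 point per library. Bcl2 over Bcl2l11 lies between 6.43 and 10.2 in the spleen libraries and between 0.789 and 1.49 in the muscle libraries.

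Other genes of the death and survival pathway were read from 6 lists with 90 genes, of which 85 were tested. In young mice 15 were higher and 10 lower in muscle, where 11.4% and 10.9% of all genes were, with a median log2 fold change of 0.09 against 0.07 over all genes tested; in aged mice 11 were higher and 10 lower, against 9.57% and 9.27% of all genes, with a median of -0.09 against 0.03. For age 4 passed in muscle (2.02% of all genes did), with a median of -0.15 against 0.03, and 6 in spleen (4.24% of all genes), with a median of -0.02 against 0.05; 5 passed for the difference of age effects (2.52% of all genes). Of the 10 tested genes on the list of other BH3-only and effector genes, edgeR and DESeq2 called 0 in every comparison. Only Bmf was under an unadjusted p of 0.05, for tissue in young mice, at 1.64 ± 0.74 (edgeR adjusted p = 0.122). Bok, on the same list, had too few reads to test. Some of the 10 had few reads, such as Hrk (SE 1.18) and Bcl2l14 (SE 1.24) in that comparison. Large changes of such genes could have gone uncalled. Of the other survival genes on the lists, only Bcl2l12 had enough reads to test; it passed no test in edgeR or DESeq2 and was never under an unadjusted p of 0.05.

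Genes of death receptors and their signalling differed in both directions. Of 16 such genes 3 were higher and 3 lower in young muscle than in young spleen, where 11.4% and 10.9% of all genes were. Tnfrsf10b, the mouse receptor for the death ligand Trail, measured 14.02 and 19.37 CPM for young spleen, 23.05 and 16.62 CPM for aged spleen, 82.48 and 120.9 CPM for young muscle, and 92.37 and 83.31 CPM for aged muscle, with all muscle libraries above all spleen libraries. It was higher in muscle by 2.59 ± 0.29 in young mice (edgeR adjusted p = 1.6e-05) and by 2.13 ± 0.28 in aged mice (edgeR adjusted p = 9.77e-05). Fas, the receptor of Fas ligand, measured 61.22 and 57.73 CPM for young spleen and 26.96 and 23.98 CPM for young muscle, lower in muscle by a log2 fold change of -1.22 ± 0.27 (edgeR adjusted p = 0.00439), and Casp8, the caspase that such receptors activate, was at -1.13 ± 0.23 (edgeR adjusted p = 0.00272). Tnfrsf1b, the TNF receptor 2 gene, was lowest in young spleen, at 201.4 and 175.9 CPM against 398.3 to 578.5 CPM in the other 6 libraries; it rose with age in spleen by 1.26 ± 0.17 (edgeR adjusted p = 0.000409), and its age effect differed between tissues by -1.49 ± 0.24 (edgeR adjusted p = 0.00237). The remaining 2 genes called in young mice were Tnfaip3, an inhibitor of NF-kB signalling, at 0.53 ± 0.16 (edgeR adjusted p = 0.0277) and the adaptor Tradd at -0.81 ± 0.28 (edgeR adjusted p = 0.0492). Their calls ended without any 1 spleen library, at 0.46 to 0.60 for Tnfaip3 and -0.88 to -0.74 for Tradd, and without young muscle replicate 2, at 0.44 and -0.92; that of Tradd also ended without young muscle replicate 1 (-0.71). With no filter the Tnfaip3 call ended (0.50), and the Tradd call ended in DESeq2 (-0.77), with library-size scaling (-0.69), with RLE scaling (-0.77), with only the 2 groups compared (-0.80) and in the fit that was not robust (-0.81), so that it was kept in 5 of 16 alternatives. In aged mice 2 genes were higher in muscle, Tnfrsf10b and Tnfaip3, and 2 lower, Tradd and Traf2, against 9.57% and 9.27% of all genes. Tnfaip3 was at 1.15 ± 0.16 (edgeR adjusted p = 0.000174), kept under all 16 alternatives. Tradd was at -0.93 ± 0.28 (edgeR adjusted p = 0.0304), kept under 10, and Traf2, an adaptor of TNF receptors, at -0.65 ± 0.21 (edgeR adjusted p = 0.0405), kept under 9. Without aged spleen replicate 1 Tradd was at -0.83 and Traf2 at -0.30, without aged muscle replicate 2 they were at -0.66 and -0.56, and without either young spleen library at -0.93 and -0.65, none past the threshold. The Tradd call also ended without aged spleen replicate 2 (-1.02) and in DESeq2 (-0.88), and the Traf2 call without aged muscle replicate 1 (-0.73), in DESeq2 (-0.60) and with RLE scaling (-0.60). The calls of Tnfrsf10b, Fas, Casp8 and Tnfrsf1b given above were kept under every alternative run.

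Among 28 upstream regulators of the family, 9 were higher and 5 lower in young muscle than in young spleen, and 7 were higher and 4 lower in aged mice; of all genes 11.4% were higher and 10.9% lower in young mice, and 9.57% and 9.27% in aged mice. Nfkbia, the NF-kB inhibitor that NF-kB itself induces, measured 1533 and 1493 CPM for young spleen, 1627 and 1737 CPM for aged spleen, 4174 and 3885 CPM for young muscle, and 3394 and 2835 CPM for aged muscle. It was higher in muscle by 1.41 ± 0.14 in young mice (edgeR adjusted p = 5.54e-06) and by 0.89 ± 0.14 in aged mice (edgeR adjusted p = 0.000562). Pim3, a survival kinase, was higher in young muscle than in young spleen by 1.93 ± 0.30 (edgeR adjusted p = 0.00036). Foxo3, a forkhead factor known to induce Bcl2l11, was at -1.30 ± 0.25 in young mice (edgeR adjusted p = 0.00163). Gfi1, a transcriptional repressor, measured 41.13 and 39.91 CPM for young spleen, 4.023 and 0.9991 CPM for young muscle and 18.25 and 21.99 CPM for aged muscle. It was lower in young muscle than in young spleen by a log2 fold change of -3.92 ± 0.46 (edgeR adjusted p = 2.77e-05) and rose with age in muscle by 2.91 ± 0.47 (edgeR adjusted p = 0.00369). The sizes of both Gfi1 values turned on 1 library: without young muscle replicate 1 they were -5.28 and 4.27, and without young muscle replicate 2 they were -3.32 and 2.31, all past the threshold. The Gfi1 age call in muscle ended with only the 2 groups compared, at 2.94. In aged mice Gfi1 was at -1.12 ± 0.36 between tissues (edgeR adjusted p = 0.0425), a call kept in 7 of 16 alternatives. The call ended when any 1 library of spleen was left out (-1.12 to -1.11), when 1 of aged muscle was (-0.96 and -1.25), in DESeq2 (-1.06) and with library-size or RLE scaling (-1.04 and -1.06). Il2ra, the interleukin-2 receptor alpha chain, measured 379 and 410.7 CPM for young spleen, 201.8 and 218.8 CPM for aged spleen, 302.5 and 308.2 CPM for young muscle, and 315.1 and 278.3 CPM for aged muscle. The Il2ra gene fell with age in spleen by 0.91 on the log2 scale (edgeR adjusted p = 0.0024), a call that ended without young spleen replicate 2 (-0.85) and without either aged spleen library (-0.85 for replicate 1 and -0.97 for replicate 2).

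The other regulators lower in muscle were these. Il2rb, the interleukin-2 receptor beta chain, was at -0.81 ± 0.16 in aged mice (edgeR adjusted p = 0.00338), kept under all 16 alternatives. In young mice Il2rb was at -0.55 ± 0.16 (edgeR adjusted p = 0.026), a call that ended without any 1 spleen library (-0.68 to -0.41) or young muscle replicate 2 (-0.50). Jak1, a kinase of cytokine receptors, was at -0.60 ± 0.15 in young mice (edgeR adjusted p = 0.0106), a call that ended without either young spleen library (-0.64 and -0.56) or young muscle replicate 1 (-0.54). Foxo1, a forkhead factor, was at -0.65 ± 0.16 in aged mice (edgeR adjusted p = 0.0104), a call that ended without either aged spleen library (-0.60 and -0.70) or aged muscle replicate 2 (-0.47). Trp53, which makes p53, was at -0.68 ± 0.21 in young mice (edgeR adjusted p = 0.0304) and -0.66 ± 0.21 in aged mice (edgeR adjusted p = 0.0388). Each Trp53 call was kept in 7 of 16 alternatives and ended without any 1 library of the 2 groups compared, at -0.80 to -0.55 and -0.75 to -0.57. Of the genes higher in aged muscle than in aged spleen, Pim1, a survival kinase, had the smallest p, at 1.62 ± 0.21 (edgeR adjusted p = 8.05e-05), kept under all 16. Others that passed as higher in young muscle were Pim1 (1.035), Akt1 (0.82), Il7r (0.675), Stat3 (0.58), Atf4 (0.55), Jak3 (0.54) and Trp73 (3.66). The Trp73 value had an SE of 1.24 (edgeR adjusted p = 0.047). Its level in young spleen, 1.402 and 0.3875 CPM, was near or under the limit of 3 counts. In young muscle it was 5.632 and 17.48 CPM. The others that passed as higher in aged muscle were Atf4 (0.72), Mdm2 (0.63), Stat3 (0.54), Il2ra (0.50) and Il7r (0.49). Each of these calls ended under at least 1 alternative. Those of Trp73 in young mice and of Il2ra and Il7r in aged mice were kept in 11, 9 and 9 of 16.

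Of 16 genes of the apoptosome, caspases and their inhibitors, 1 passed between tissues in young mice, where 22.3% of all genes did: Apaf1, the scaffold that cytochrome c activates, at 0.92 ± 0.25 (edgeR adjusted p = 0.0177); Apaf1 no longer passed without young spleen replicate 1 or 2 (0.92 in each case). In aged mice 4 passed, against 18.8% of all genes: Birc2 and Birc3, inhibitors that act on TNF receptor complexes, were higher in muscle at 0.76 ± 0.16 and 0.74 ± 0.19, and the caspase inhibitor Xiap and the caspase Casp2 lower at -1.02 ± 0.23 and -0.87 ± 0.28 (edgeR adjusted p = 0.00514, 0.0146, 0.00781 and 0.0434). Each of these 4 calls ended without aged spleen replicate 1, with Birc2 at 0.67, Birc3 at 0.61, Xiap at -0.98 and Casp2 at -0.92. Without aged spleen replicate 2 the calls of Birc3 (0.88), Xiap (-1.06) and Casp2 (-0.83) ended. Without aged muscle replicate 1 those of Birc3 (0.50) and Casp2 (-0.80) ended, and without aged muscle replicate 2 those of Xiap (-0.86) and Casp2 (-0.92). The Casp2 call, kept in 8 of 16 alternatives, also ended in DESeq2 (-0.82), with library-size scaling (-0.81), with RLE scaling (-0.82) and in the fit that was not robust (-0.87). Of 14 genes that handle Mcl1 or BH3-only proteins, Bag3, a co-chaperone known to stabilise Mcl1, had opposite age effects in the tissues. It measured 51.41 and 47.66 CPM for young spleen, 113.8 and 94.66 CPM for aged spleen, 172.2 and 137.9 CPM for young muscle, and 63.32 and 71.04 CPM for aged muscle. Its age effects differed by -2.28 ± 0.29 (edgeR adjusted p = 0.00035), a call kept under all 15 alternatives that could be run. Bag3 fell with age in muscle by 1.21 on the log2 scale (edgeR adjusted p = 0.00424), which no longer passed with only the 2 groups compared (-1.21). In spleen it rose by 1.08 ± 0.20 (edgeR adjusted p = 0.00696), which no longer passed without young spleen replicate 1 (1.13) or 2 (1.02) or without the first aged spleen library (0.93). Between tissues Bag3 was at 1.65 ± 0.21 in young mice (edgeR adjusted p = 4.53e-05), kept under all 16 alternatives, and at -0.64 ± 0.20 in aged mice (edgeR adjusted p = 0.0371), kept under 9. Its call in aged mice ended in DESeq2 (-0.58) and when any 1 library of spleen or of aged muscle was left out (-0.76 to -0.50).

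The other genes called on that list between tissues were Huwe1, Ywhaz and Dynll2. Huwe1, a ubiquitin ligase of Mcl1, was at -0.74 ± 0.17 in young mice (edgeR adjusted p = 0.00521), not past the threshold without young spleen replicate 1 (-0.72). In aged mice Huwe1 was at -0.58 ± 0.16 (edgeR adjusted p = 0.0234), a call that ended without either aged spleen library (-0.63 and -0.53) or aged muscle replicate 2 (-0.43). Ywhaz, a 14-3-3 protein that can hold phosphorylated Bad, was at 0.66 ± 0.15 in young mice (edgeR adjusted p = 0.00608), a call that ended without either young spleen library (0.70 and 0.61). Dynll2, a dynein light chain that binds Bmf, was at -0.74 ± 0.23 in young mice (edgeR adjusted p = 0.0324). The Dynll2 call ended without either young spleen library (-0.69 and -0.79), aged spleen replicate 1 (-0.74) or young muscle replicate 2 (-0.60), and in DESeq2 (-0.70).

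In spleen the 6 age calls on these lists were Tnfrsf1b, Bag3 and Relb higher and Il2ra, Tsc22d3 and Dynll1 lower in aged mice. Relb, an NF-kB subunit, was at 0.91 ± 0.17 (edgeR adjusted p = 0.00562). Tsc22d3, a gene induced by glucocorticoids, was at -0.85 ± 0.18 (edgeR adjusted p = 0.0132), and Dynll1, a dynein light chain that binds Bim, at -0.77 ± 0.18 (edgeR adjusted p = 0.0207). The calls of Relb, Tsc22d3 and Dynll1 ended without any 1 spleen library, at 0.83 to 0.98, -0.98 to -0.73 and -0.88 to -0.66. In muscle the 4 were Gfi1 and Birc2 higher and Birc6 and Bag3 lower in aged mice. Birc2 was at 0.80 ± 0.17 (edgeR adjusted p = 0.0194) and Birc6, a large inhibitor of caspases, at -0.97 ± 0.17 (edgeR adjusted p = 0.00505). Both calls ended with only the 2 groups compared, and that of Birc2 also without aged spleen replicate 1 or 2 (0.80) or aged muscle replicate 1 (0.71). For the difference of age effects, muscle minus spleen, Gfi1 (2.81 ± 0.59) and Il2ra (0.87 ± 0.21) were positive (edgeR adjusted p = 0.0178 and 0.0396). Tnfrsf1b, Bag3 and Jak3, a kinase of the interleukin-2 receptor (-0.94 ± 0.21, edgeR adjusted p = 0.0246), were negative. These calls of Gfi1, Il2ra and Jak3 ended without any 1 spleen library, with values of 2.79 to 2.83, 0.81 to 0.93 and -1.05 to -0.83, and that of Il2ra also without young muscle replicate 1 (0.86) and with no filter (0.84).

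**Figure D4:**
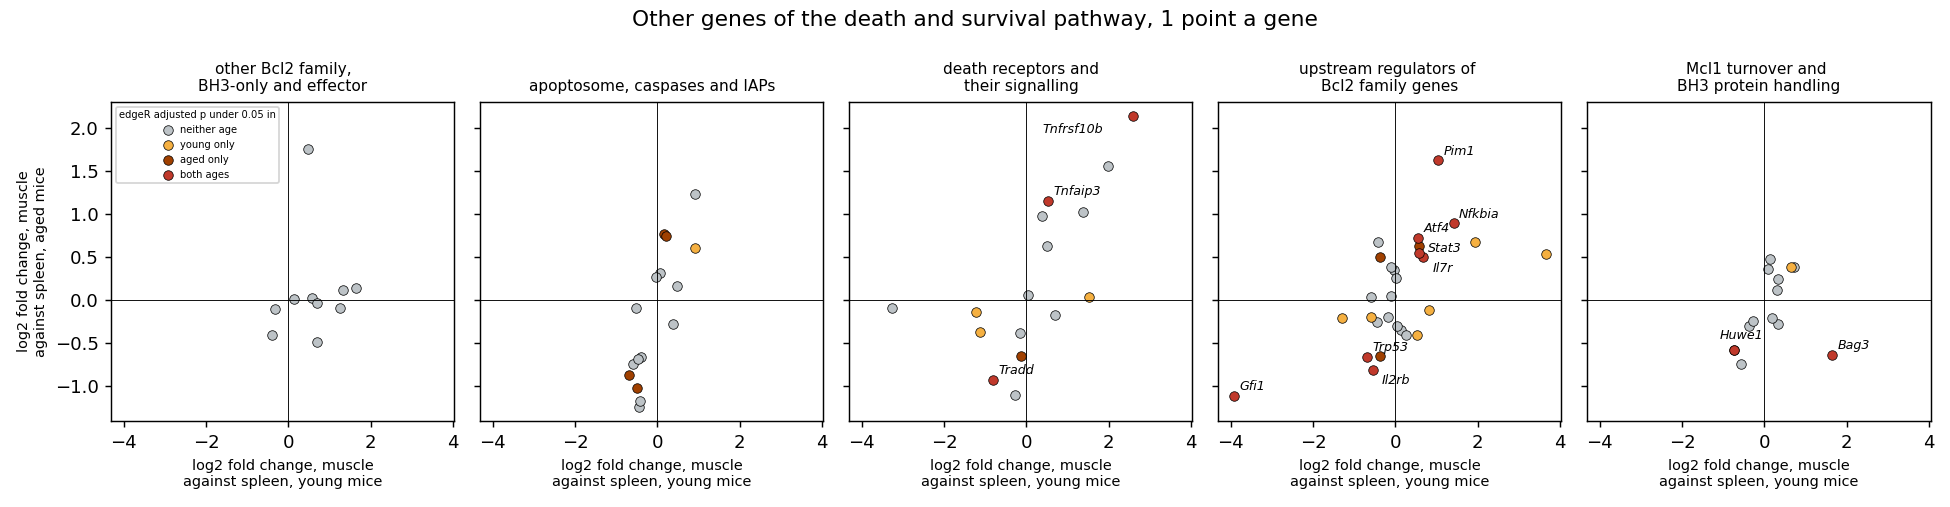
Log2 fold change of muscle against spleen in young mice (horizontal) and aged mice (vertical) for 84 tested genes in 5 lists, 1 point per gene, coloured by whether edgeR's adjusted p was under 0.05 in young mice, aged mice, both or neither; names mark genes past it at both ages. Tnfrsf10b lies at 2.59 and 2.13, and Bag3 at 1.65 and -0.64, on opposite sides of 0.

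By Pearson correlation of log2 CPM over the 8 libraries, among 7744 other genes with a mean of at least 4 on that scale, the pattern of Bcl2 was most like those of Aak1 (0.996), Thada (0.993) and Ikbke (0.993). Mean levels of Thada were 442.6 CPM for young spleen, 246.7 for aged spleen, 74.79 for young muscle and 70.06 for aged muscle. For Mcl1 they were Ube2h (0.986), Il17ra (0.983) and Ppp1r18 (0.969), and for Bcl2l11 they were Zcchc11 (0.975), Sfpq (0.974) and Ube2d2a (0.969). Among the members, Bax and Bbc3 had the highest correlation (0.938) and Bcl2 and Pmaip1 the lowest (-0.868). These are descriptions over 8 libraries that share their 4 groups.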

How the data were processed

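The deposited table holds the authors' read counts for each gene and library, as whole numbers with no normalization. HTSeq, SAMtools 0.1.19, Picard, TopHat and TopHat2 are the tools, and mm10 the build, per the submitters' processing notes; the sources used here give neither annotation nor strand setting. Per the labels' protocols, RNA was amplified by in vitro transcription and PCR, without molecular identifiers in the description, so counts are reads, not molecules, and floors cover counting error only. Every column was used.

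From these counts, R 4.3.3 with edgeR 4.0.16 kept genes by filterByExpr over the groups (minimum count 10, minimum total 15), scaled libraries by TMM and fitted 1 robust quasi-likelihood model to all 8 libraries (4 residual degrees of freedom, common biological coefficient of variation 0.288). Tests were two-sided, with Benjamini-Hochberg adjustment over 14772 genes at 0.05. Each SE was taken from the fold change and its F statistic. CPM are TMM-scaled. Log2 CPM used a prior count of 2. The fit was tested on simulated data, which cannot show whether its assumptions hold in these libraries. Alternatives, run also in DESeq2 1.42.0, are in the closing section. Replicate numbers were taken as names only.

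Members and lists were chosen with earlier results of these data known. From each list the rule names the 3 genes of smallest p in a comparison and those called where the text counts 5 or fewer; the text gives a part of these. The tightest correlations are given for Bcl2, Mcl1 and Bcl2l11; those between members, named by extremes, were chosen after their values were seen. Positions and coding sequence are from GENCODE M21 on GRCm38 and promoters from RefSeq. Positions are counted from 1.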

Additional observations from a re-analysis of the deposited data

How the results depend on the processing

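Of the members' log2 fold changes under the alternatives, 668 stayed on their side of the threshold, 20 lost a call and 18 gained one, and no called value changed sign. The count of members called between the tissues in young mice was 2 under all 16 alternatives, while the share of all genes called moved from 9.78% without young spleen replicate 1 to 24.5% with a replicate block. In aged mice the count of members was 4, and ranged from 2 to 4 with 1 library left out. For age in muscle the count was 0, and was 1 in DESeq2, with library-size scaling, with no filter and with a replicate block, and 0 to 2 with 1 library left out. For age in spleen the count was 3, with a range of 0 to 4 when 1 library was left out, and for the difference of age effects it was 0, with a range of 0 to 2. The cause was not tested, but leaving out a library leaves 3 residual degrees of freedom and 1 sample in a group, which is then assumed to vary like the others. Only the 2 groups compared could not be fitted for the difference.

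Same-numbered libraries of different groups had correlations of -0.0652 to 0.256 in their deviations from the group means. The labels do not say whether a number marks a shared animal, so whether such libraries share more than a number is not known. With the replicate block the counts of members called were 2 and 4 between tissues in young and aged mice, 1 for age in muscle, 4 for age in spleen and 0 for the difference, and the shares of all genes called were 24.5%, 21.5%, 3.24%, 6.05% and 3.2%, in that order.

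Library-size scaling moved the median log2 fold change of all genes by 0.11 for tissue in young mice, 0.12 for age in muscle and 0.17 for age in spleen. Under it the share of all calls that were higher was 66.4% for age in muscle, against 56.4%, and 67.4% for age in spleen, against 49%. Bcl2a1d had a biological coefficient of variation of 0.629, against 0.117 to 0.206 for the other members tested.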
